A study of Homo sapiens with 8 samples.

Results

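The 29 genes described here make, take up, move and store cholesterol, or set how much of it a cell makes. They were chosen by name: a gene entered when the symbol of its row in the deposited count table equalled a listed member. All 29 names were found, with 1 row each, among 30434 genes in the table, and all 29 passed the filter on low counts that left 16430 genes for testing. They fall into 4 regulators of the pathway, 8 enzymes from acetyl-CoA to isoprenoids, 10 enzymes from squalene to cholesterol, and 7 genes of uptake, transport and storage.

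The data are RNA-seq of SKBR3, an established human breast cancer line with amplified ERBB2. The design compared 4 control libraries, whose genotype is labelled WT, with 4 libraries from cells carrying lentiviral short hairpin RNAs against FOXA1, a forkhead transcription factor that opens chromatin in luminal breast cells. The knockdown cells were a stable line made with 3 individual hairpins, and the labels do not say which hairpin a library carried, nor whether the controls carried a vector. Both groups grew in DMEM with fetal bovine serum, which supplies lipoprotein cholesterol. No label says that the replicates came from separate cultures, so p-values measure the spread between these libraries, which may be technical.

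Cells build cholesterol from acetyl-CoA through mevalonate, isoprenoid diphosphates and squalene, and they also take it up from lipoproteins. SREBF2 encodes the transcription factor SREBP-2, which is held in the endoplasmic reticulum and travels to the Golgi with its escort SCAP when sterols are low. There it is cut, and the released fragment switches on genes of synthesis and uptake. The INSIG proteins hold SCAP back when sterols are plentiful.

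Control libraries held 21838121 to 23786684 counts and knockdown libraries 19087878 to 23503753. FOXA1 itself had between 4071 and 4397 counts in the control libraries and between 83 and 92 in the knockdown libraries. Its level fell to 2.06% of control, a log2 fold change of -5.60 (SE 0.063, adjusted p = 3.19e-30). One control library, replicate 3, differed more from its group than the others did: chi-square per degree of freedom over genes was at least 4.7 in each pair that held it and at most 2.34 in control pairs without it. Summed markers of the epithelial line ran from 19080 to 21190 CPM (counts scaled to 1000000 per TMM-adjusted library) in control and from 12020 to 12930 in knockdown over 10 of 10 genes. Of these, ERBB2, GRB7, KRT7, KRT19 and TFAP2C were lower in knockdown, KRT8, KRT18, EPCAM and TFAP2A were higher, and CDH3 was under the filter. The keratins thus moved both ways: KRT7 went from 2202 to 637 CPM and KRT19 from 2645 to 723, while KRT8 went from 4519 to 5619 and KRT18 from 2312 to 3457. Fibroblast markers, 6 of 7 analysed, summed to between 5.999 and 7.55 CPM in control and between 11.25 and 12.68 in knockdown. Within that list COL3A1 rose from at most 1 count to between 90 and 104 and PDGFRB rose from 0.411 to 2.83 CPM, while COL1A1, the most abundant in control, fell from 5.38 to 4.33 CPM (adjusted p = 0.0169). THY1 was not called, and COL1A2 and DCN were under the filter, with at most 3 and 1 counts in any library. Leukocyte markers (4 of 6) summed to between 0.723 and 1.18 CPM over both groups, with PTPRC at no more than 3 counts, and endothelial markers (4 of 4) summed to between 19.82 and 22.45 CPM. In the endothelial list VWF fell from 5.22 to 0.845 CPM, CDH5 rose from 16.11 to 20.08 CPM, and PECAM1 and KDR were under the filter. What part these shifts have in the results was not tested, and in bulk RNA fewer cells expressing a gene and less RNA per cell cannot be told apart.

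The pathway did not move as a block. At an adjusted p under 0.05, 15 of the 29 genes rose in knockdown (51.7%) and 12 fell (41.4%), while FDFT1 and EBP were not called. Over all genes tested the edgeR fit called 77.1% in either direction, 39.4% higher and 37.7% lower, so most genes of these cells differed. Restricted to genes averaging 50 counts or more, a level all 29 reached, the shares were 82.6% called, 41% higher and 41.6% lower. CPM did not overlap between the groups for 27 of the 29, against 72% of all genes tested, and each of those 27 had an exact two-sided permutation p of 0.0286, the smallest that 70 divisions of 8 libraries allow. Only 5 of the 29 (17.2%) were called at 2-fold or more, against 28.3% of all genes tested and 23.5% of those averaging 50 counts or more. HMGCS1, STARD4 and HSD17B7 were higher (3 genes, against 14.9% of genes tested), and TM7SF2 and SCARB1 were lower (2 genes, against 13.4%). The median log2 fold change of the 29 was 0.15, beside 0.02 over all genes tested, and the median size of change without its sign was 0.62, beside 0.51.

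The promoters of these genes are shown because SREBP-2 is known to bind a sterol regulatory element together with NF-Y, which binds the CCAAT box. RefSeq promoter sequences (GRCh38.p14, from 250 bases before to 50 after a gene's start) matched 25 of the 29 genes by symbol, and ACAT2, FDFT1, SCARB1 and SQLE had no entry. Each motif was searched on both strands, and no match of one motif overlapped a match of another. CCAAT was present in 20 of 25 genes (80.0%), against 42.7% of 11267 tested genes with a promoter in the table. Genes can have several start sites, and over single windows the shares were 64.7% of 34 and 34.5% of 16323. Of the 20 genes with CCAAT, 13 rose, 6 fell and 1 was not called, beside 39.4% higher and 37.7% lower over all genes tested. The directions of the other tested genes with CCAAT were not counted. Among the genes with an entry but without CCAAT, PMVK rose, and SCAP, INSIG2, STARD3 and NPC1 fell. An exact match to the sterol element consensus TCACNCCAC was present in 1 of 25 genes, SREBF2, against 1.47% of tested genes. Sterol elements with other letters were not searched for, so a gene without a match may still hold one. The forkhead core TGTTTAC was present in 0 of 25, against 3.50% of tested genes. A match is a description of letters, not of binding. Stretches around the matches upstream of the start are printed for the regulators that have one and for the genes with an entry that changed by 2-fold or more, each 5′ to 3′ on the gene's strand, with the matches in capitals (ATTGG is CCAAT read on the other strand):
SREBF2 (chr22:41832957-41833018, plus strand): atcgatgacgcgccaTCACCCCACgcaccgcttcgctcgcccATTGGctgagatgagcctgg
INSIG1 (chr7:155297693-155297727, plus strand): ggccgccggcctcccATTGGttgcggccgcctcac
HMGCS1 (chr5:43313493-43313582, minus strand): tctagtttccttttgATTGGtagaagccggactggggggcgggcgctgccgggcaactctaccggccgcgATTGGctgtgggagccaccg
STARD4 (chr5:111512646-111512711, minus strand): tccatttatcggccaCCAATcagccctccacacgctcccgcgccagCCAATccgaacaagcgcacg
HSD17B7 (chr1:162790635-162790669, plus strand): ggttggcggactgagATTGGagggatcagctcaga
TM7SF2 (chr11:65111783-65111817, plus strand): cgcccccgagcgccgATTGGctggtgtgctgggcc
HMGCS1 and STARD4, the genes with the largest rises among the 29, each show the CCAAT letters at 2 places in the printed stretch, and TM7SF2, with the largest fall, shows them at 1. HSD17B7 has a further match outside its printed stretch, from 8 to 12 bases after the start. Genes that moved in opposite directions share these letters, and whether the letters bear on the direction was not tested.

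Of the 4 regulators, 3 fell and INSIG1 rose, beside 37.7% lower and 39.4% higher over all genes tested. SREBF2 had 300.0, 296.7, 322.2 and 295.3 CPM in the control libraries and 242.0, 250.5, 239.7 and 255.2 in knockdown. The groups did not overlap, and the fall was modest, with a log2 fold change of -0.30 (SE 0.0363, adjusted p = 3.61e-08). SCAP, the escort, had 85.5, 81.4, 90.03 and 78.86 CPM in control and 63.76, 63.46, 60.65 and 62.0 in knockdown. Every knockdown library lay under every control library, and knockdown kept 74.4% of the control level (log2 fold change -0.43, SE 0.045, adjusted p = 3.24e-09).

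The INSIG genes, whose proteins both retain SCAP, moved in opposite directions. INSIG1, itself a known SREBP target, had 47.49, 47.71, 48.96 and 45.42 CPM in control and 74.89, 76.56, 71.6 and 78.24 in knockdown (log2 fold change 0.67, SE 0.0354, adjusted p = 3.69e-13). INSIG2 had 21.8, 21.43, 17.62 and 18.4 CPM in control and 11.39, 10.69, 11.36 and 10.5 in knockdown (log2 fold change -0.85, SE 0.0828, adjusted p = 1.71e-10). Neither gene's groups overlapped, and the control libraries of INSIG2 split into a higher and a lower pair. The ratio of INSIG1 to INSIG2 counts within a library, which does not depend on scaling, was 2.41 ± 0.275 in control and 6.87 ± 0.525 in knockdown (SD, n = 4 each). Summed over the 4 regulators, CPM went from 454.7 ± 17.5 to 395.6 ± 10.0, a sum led by SREBF2.

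**Figure D1:**
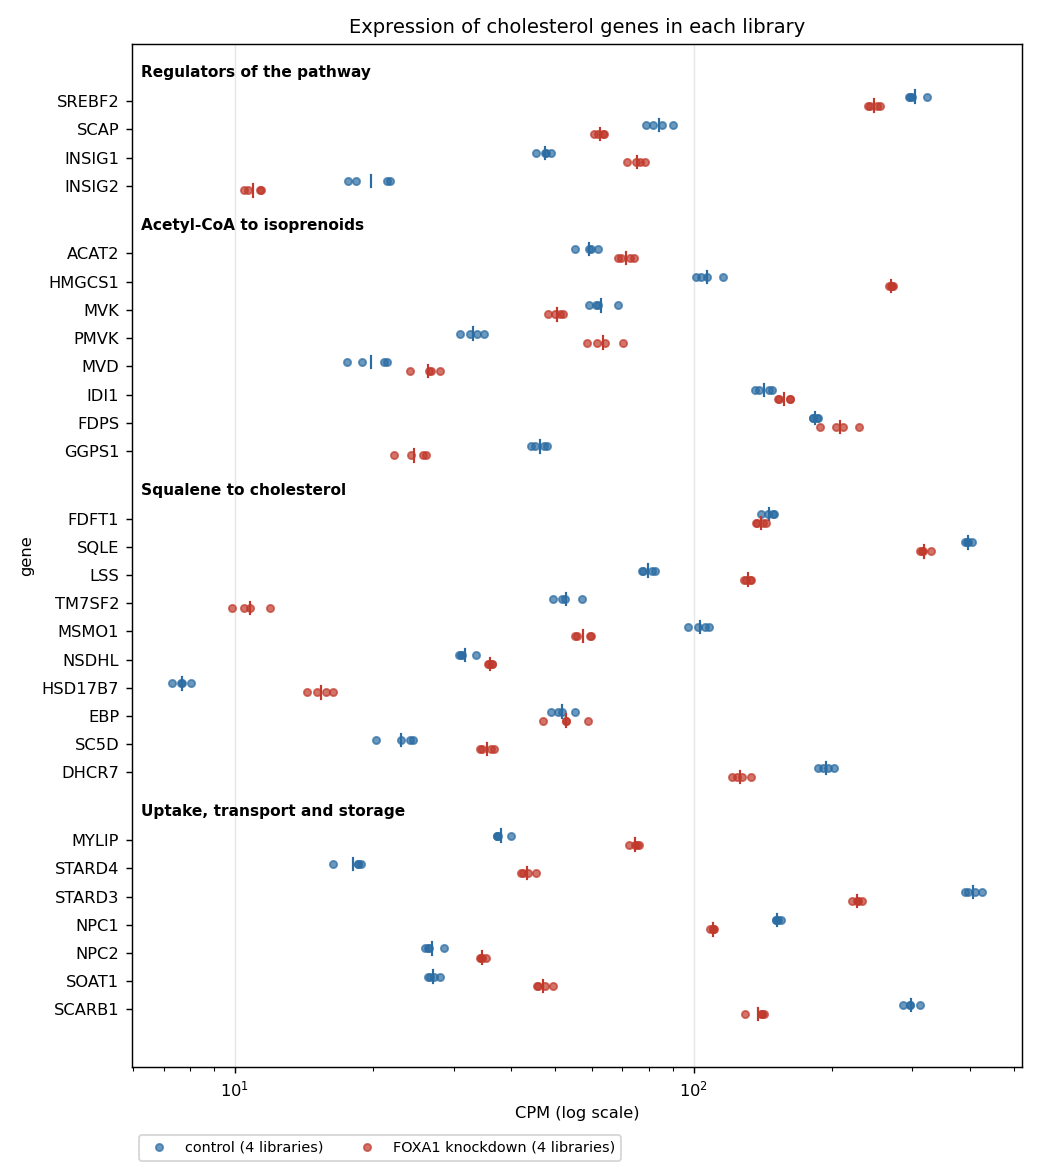
CPM on a log axis for the 29 genes in each of 4 control (blue) and 4 knockdown (red) libraries, with short vertical lines at group means. The groups overlap at FDFT1 and EBP alone; HMGCS1 sits between 101.5 and 116.1 in control and between 266.9 and 272.1 in knockdown.

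From acetyl-CoA to isoprenoids, 6 of 8 enzymes rose (75.0%) and 2 fell (25.0%), beside 39.4% and 37.7% of all genes tested. The median log2 fold change of the 8 was 0.22. HMGCS1, which condenses acetoacetyl-CoA with acetyl-CoA to the substrate of mevalonate synthesis, had the largest rise of the 29. It had 103.9, 106.9, 101.5 and 116.1 CPM in control and 266.9, 269.2, 272.1 and 271.1 in knockdown. The knockdown libraries were tightly grouped, and the log2 fold change was 1.33 (SE 0.0428, adjusted p = 1.6e-20). PMVK, phosphomevalonate kinase, came next among these 8 enzymes, at 33.04 ± 1.66 CPM in control and 63.57 ± 4.85 in knockdown (log2 fold change 0.94, adjusted p = 3.66e-14). MVD, which decarboxylates mevalonate diphosphate, rose from 19.81 ± 1.86 to 26.36 ± 1.63 CPM (log2 fold change 0.42, adjusted p = 2.89e-06).

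The other rises in this stretch were small. ACAT2, the cytosolic thiolase that makes acetoacetyl-CoA, had a log2 fold change of 0.27 (adjusted p = 7.37e-06), and its exons overlap those of the much more abundant TCP1 on the opposite strand over 9.2% of their bases. TCP1 was also higher, at 0.23. FDPS, which makes farnesyl diphosphate, had a log2 fold change of 0.18 (adjusted p = 0.00119), with control libraries between 181.9 and 187.0 CPM and knockdown libraries between 189.1 and 229.7. The gap between its groups was therefore narrow beside the spread in knockdown. IDI1, the isopentenyl diphosphate isomerase, had a log2 fold change of 0.15 (adjusted p = 9.03e-04). Antisense genes overlap 15% of the exonic bases of HMGCS1, 14.8% of IDI1 and 18.6% of FDPS, with means of 7.5, 39.9 and 148.6 counts, far under the genes themselves.

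MVK, mevalonate kinase, fell from 62.73 ± 3.97 to 50.32 ± 1.61 CPM (log2 fold change -0.32, adjusted p = 1.53e-06). GGPS1, which extends farnesyl to geranylgeranyl diphosphate for protein prenylation, fell from 46.17 ± 1.73 to 24.59 ± 1.75 CPM (log2 fold change -0.91, adjusted p = 5.2e-14). Of the exonic bases of GGPS1, 37.3% are shared on the same strand with a gene entry named TBCE, itself not called (log2 fold change -0.39, adjusted p = 0.144). Another entry named TBCE, 22828 bp from GGPS1, was not called either and went the other way (log2 fold change 0.62, adjusted p = 0.06). The value of GGPS1 is therefore uncertain to the degree that counting split these reads. The ratio of FDPS to GGPS1 counts within a library was 4.0 ± 0.183 in control and 8.48 ± 0.237 in knockdown. Summed over the 8 enzymes, CPM went from 654.4 ± 6.35 to 872.4 ± 30.5, 1.33 times control, with HMGCS1 giving most of the difference.

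**Figure D2:**
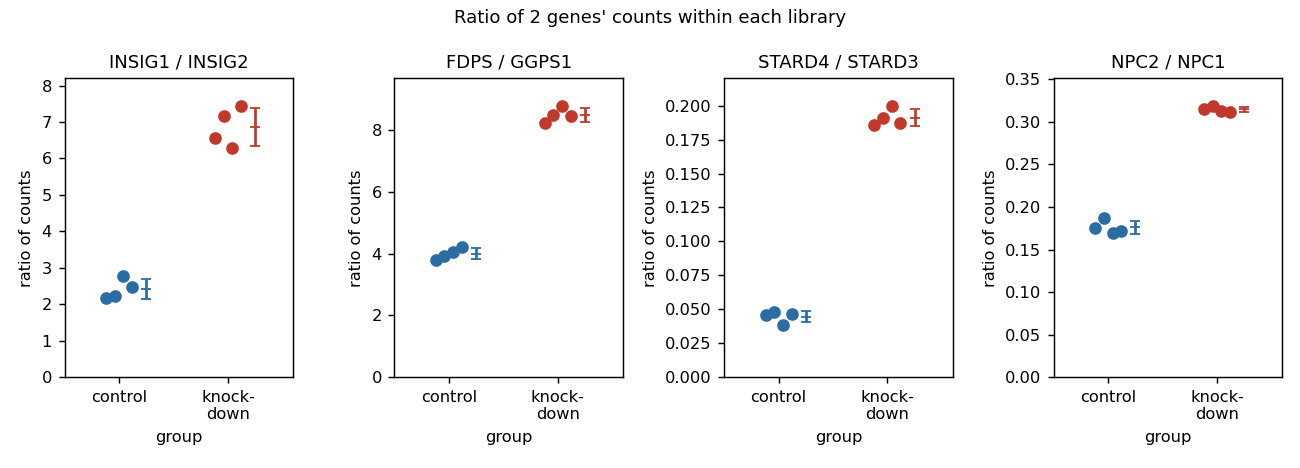
Ratio of the counts of paired genes within each library (y axis, no unit) for 4 control and 4 knockdown libraries, with the mean ± SD beside each group. INSIG1 over INSIG2 runs from 2.18 to 2.78 in control and from 6.3 to 7.45 in knockdown, and the groups do not overlap in the other pairs plotted.

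From squalene to cholesterol the 10 enzymes split evenly: 4 rose, 4 fell and 2 were not called. That is 40.0% in each direction, beside 39.4% higher and 37.7% lower over all genes tested. The median log2 fold change of the 10 was -0.02. TM7SF2, a sterol reductase that acts after the demethylation of lanosterol, had the largest change of the 29. It had 52.39, 51.75, 57.22 and 49.39 CPM in control and 10.8, 11.92, 9.88 and 10.5 in knockdown. Knockdown libraries kept 20.5% of the control level, far under the lowest control library (log2 fold change -2.28, SE 0.0716, adjusted p = 4.31e-21). HSD17B7, a sterol ketone reductase, had 7.65, 8.04, 7.31 and 7.67 CPM in control and 15.85, 15.12, 16.35 and 14.34 in knockdown. Its level came to 201% of control (log2 fold change 1.01, SE 0.0496, adjusted p = 4.73e-12), at the edge of the 2-fold threshold. Its pseudogene HSD17B7P2, a near copy, had a mean of 19.62 counts, 7.66% of the counts of HSD17B7.

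The enzymes that make squalene and convert it to lanosterol differed. FDFT1, squalene synthase, had 146.0 ± 4.39 CPM in control and 140.0 ± 3.52 in knockdown (log2 fold change -0.06, adjusted p = 0.123), and its groups overlapped. SQLE, the squalene epoxidase and a rate-controlling step, fell from 396.5 ± 6.01 to 317.4 ± 7.79 CPM (log2 fold change -0.32, adjusted p = 1.35e-09). LSS, which closes the epoxide into lanosterol, rose from 79.64 ± 2.57 to 131.3 ± 2.29 CPM (log2 fold change 0.72, adjusted p = 3.32e-15).

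The enzymes that trim lanosterol also differed among themselves. MSMO1, which oxidises the methyl groups to be removed, fell from 103.3 ± 4.60 to 57.48 ± 2.41 CPM (log2 fold change -0.85, adjusted p = 2.7e-15). NSDHL, the dehydrogenase of the same step, rose slightly, from 31.76 ± 1.28 to 36.02 ± 0.409 CPM (log2 fold change 0.18, adjusted p = 0.00137). EBP, a sterol isomerase, was at 51.64 ± 2.65 CPM in control and 52.84 ± 4.87 in knockdown (log2 fold change 0.03, adjusted p = 0.634).

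At the end of the pathway SC5D and DHCR7 act one after the other. SC5D, a desaturase, rose from 22.99 ± 1.86 to 35.47 ± 1.198 CPM (log2 fold change 0.62, adjusted p = 2.78e-10). DHCR7, which reduces the product of SC5D, fell from 194.4 ± 6.75 to 126.5 ± 5.22 CPM (log2 fold change -0.62, adjusted p = 1.05e-13). Summed over the 10 enzymes, CPM went from 1087 ± 8.17 to 923.2 ± 9.8, 0.85 times control.

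In uptake, transport and storage, 4 of 7 genes rose (57.1%) and 3 fell (42.9%), beside 39.4% and 37.7% of all genes tested. SCARB1, the receptor for selective uptake from high-density lipoprotein, had 296.6, 286.4, 310.8 and 297.0 CPM in control and 141.3, 142.2, 129.4 and 140.5 in knockdown. All knockdown libraries lay at less than the lowest control library, and 46.5% of the control level was kept (log2 fold change -1.10, SE 0.0403, adjusted p = 4.15e-19). MYLIP, a ubiquitin ligase that marks lipoprotein receptors for degradation, rose from 38.02 ± 1.29 to 74.70 ± 1.63 CPM (log2 fold change 0.98, SE 0.0288, adjusted p = 1.35e-16).

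The START-domain proteins, which carry sterol between membranes, moved apart. STARD4, a soluble carrier, had 18.87, 18.61, 16.34 and 18.53 CPM in control and 42.46, 42.15, 45.43 and 43.59 in knockdown (log2 fold change 1.26, SE 0.0542, adjusted p = 7.13e-17). STARD3, anchored in late endosomes, fell from 405.7 ± 15.6 to 227.1 ± 4.73 CPM (log2 fold change -0.84, adjusted p = 2.53e-17). Neither gene's groups overlapped. STARD4 counts were 0.0447 ± 0.00424 of STARD3 counts within a control library and 0.191 ± 0.00641 within a knockdown library.

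NPC1 and NPC2 together export cholesterol from lysosomes. NPC1, the membrane protein, fell from 152.4 ± 1.87 to 110.0 ± 1.01 CPM (log2 fold change -0.47, adjusted p = 2.94e-12). NPC2, its soluble partner, rose from 26.85 ± 1.154 to 34.62 ± 0.451 CPM (log2 fold change 0.37, adjusted p = 2.61e-07). The ratio of NPC2 to NPC1 counts was 0.176 ± 0.00734 in control and 0.315 ± 0.00282 in knockdown. SOAT1, which esterifies cholesterol for storage, rose from 27.04 ± 0.761 to 47.04 ± 1.82 CPM (log2 fold change 0.80, adjusted p = 8.1e-14). Summed over the 7 genes, CPM went from 965.8 ± 23.5 to 675.2 ± 8.25, 0.699 times control, although more of them rose than fell. STARD3 and SCARB1, both abundant, lost the most CPM.

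Levels of different genes were compared per kb of exon, using the union of annotated exons rather than the transcripts in use. In control the highest of the 29 was SQLE at 92.1 ± 1.40 CPM per kb, followed by STARD3 at 78.6 ± 3.02, FDPS at 49.6 ± 0.671 and DHCR7 at 46.7 ± 1.62. The lowest was HSD17B7 at 1.61 ± 0.0618. In knockdown SQLE stayed first at 73.7 ± 1.81 CPM per kb, and HMGCS1 came next at 57.4 ± 0.483, from place 11 in control. HMGCS1 and FDPS, at 56.1 ± 4.54 CPM per kb in knockdown, did not differ beyond their spread. TM7SF2 went from place 14, at 15.5 ± 0.965 CPM per kb, to place 28, at 3.162 ± 0.251, beside HSD17B7 at 3.23 ± 0.183, within the spread of both. INSIG2 was the lowest of the 29 in knockdown, at 2.78 ± 0.115 CPM per kb.

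**Figure D3:**
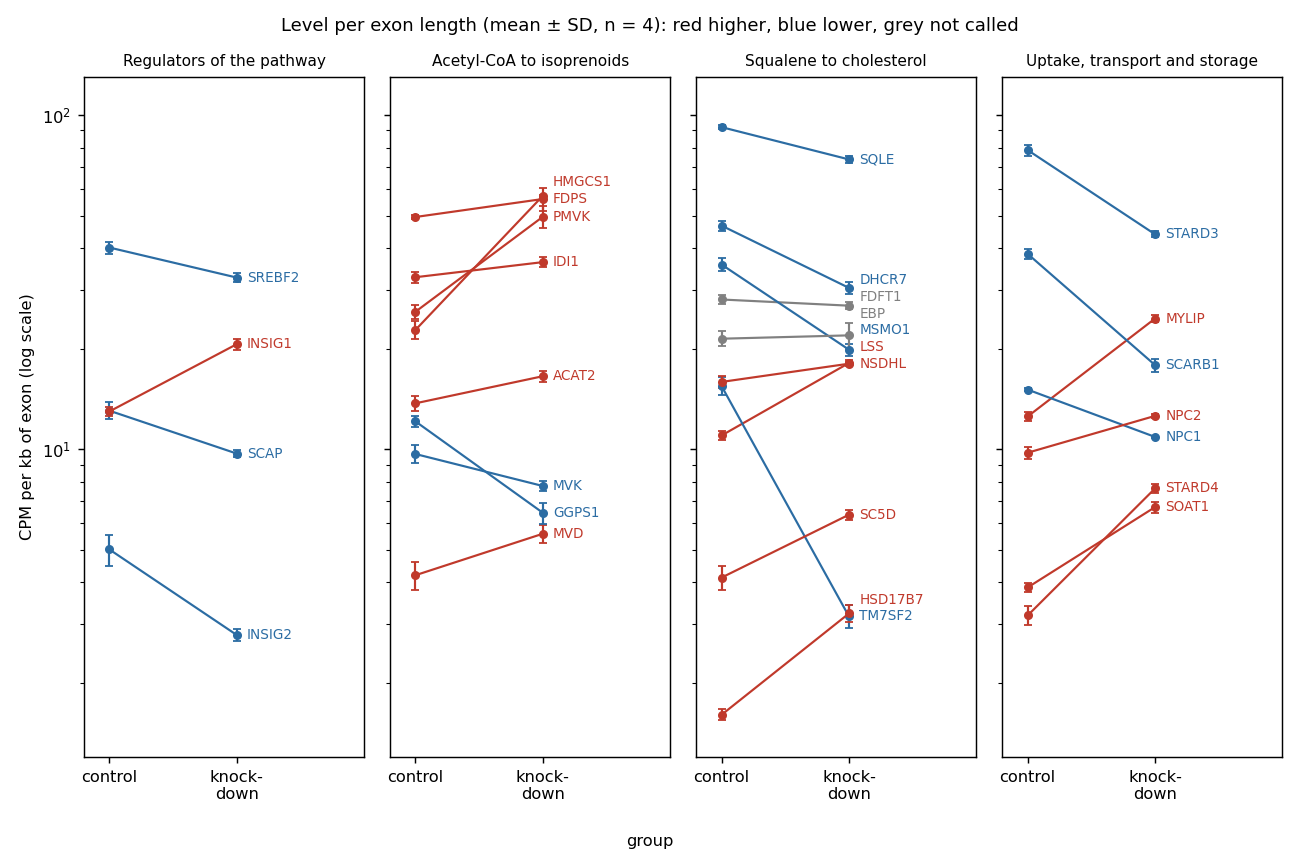
CPM per kb of exon on a log axis in control and knockdown (mean ± SD, n = 4 each), 1 panel per group of genes, red for called higher, blue for called lower and grey for not called. Lines of a gene that rose and one that fell cross in each panel except that of acetyl-CoA to isoprenoids. There HMGCS1 passes other genes that rose, and GGPS1 drops under MVK, which also fell. SQLE stays at the top and TM7SF2 drops from 15.5 to 3.162.

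To set each gene beside its surroundings, the median log2 fold change of its 50 nearest tested protein-coding genes was taken. Of the 29 genes, 14 lay above that median and 15 under it. For HMGCS1 the neighbours had a median of 0.34 and for STARD4 0.56, both on chromosome 5. With the local median taken off, the log2 fold change of HMGCS1 was 0.995 and that of STARD4 was 0.70. IDI1 on chromosome 10 had neighbours at 0.64, and its rise of 0.15 became a fall of -0.49 (adjusted p = 1.21e-11) relative to them. MVD and SQLE were no longer called relative to their neighbours, at 0.13 (adjusted p = 0.0857) and -0.07 (adjusted p = 0.0662). On chromosome 1, PMVK, FDPS, HSD17B7 and SOAT1 rose although the median of their neighbours ran from -0.26 to -0.10. GGPS1, the other member on that chromosome, fell while its neighbours had a median of 0.34.

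**Figure D4:**
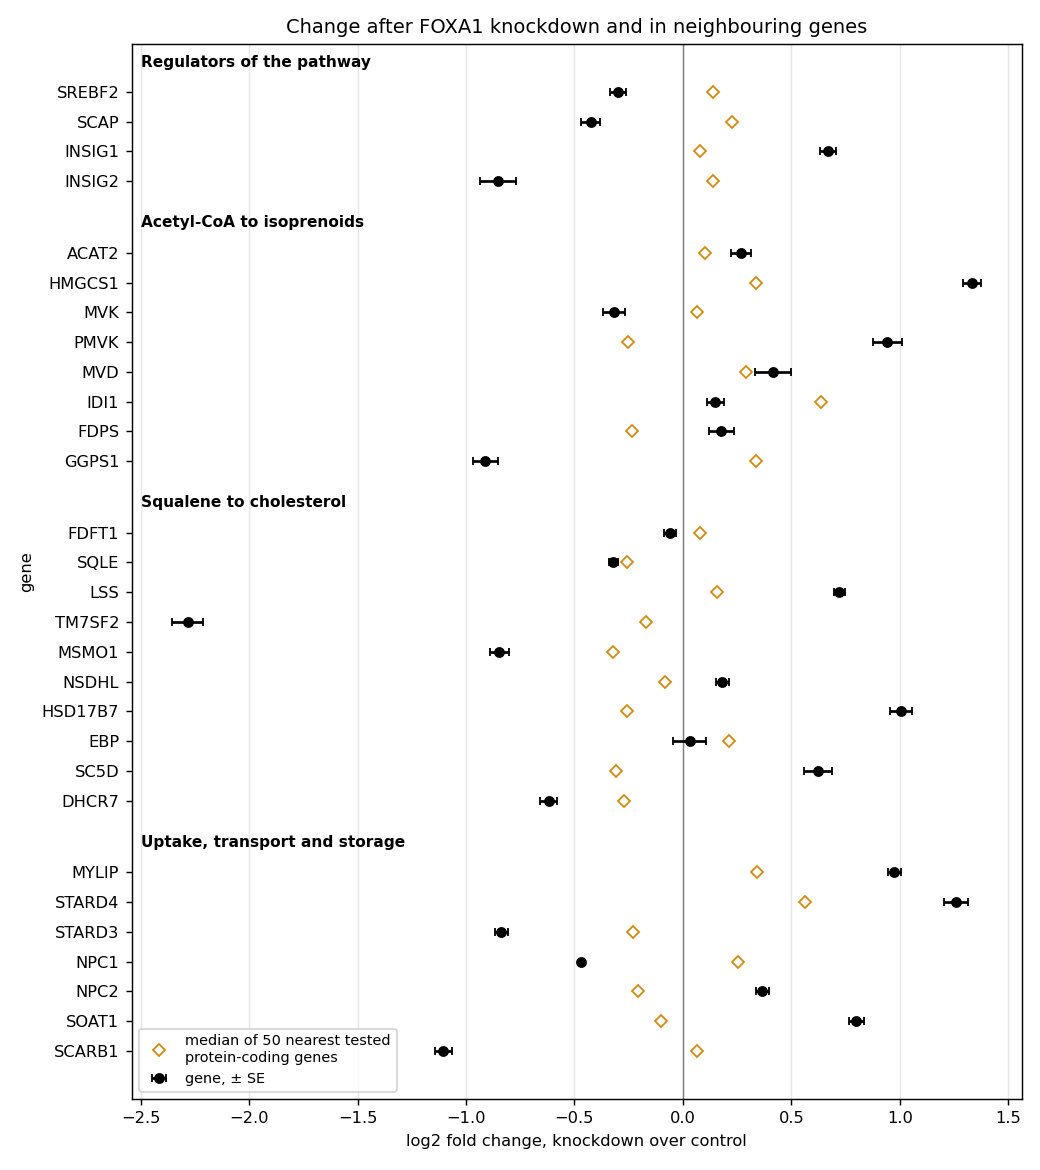
Log2 fold change (knockdown over control, x axis) of the 29 genes by group: black points with bars of ± 1 SE (n = 4 per group), and open diamonds for the median of the 50 nearest tested protein-coding genes. Rises reach 1.33 at HMGCS1 and falls reach -2.28 at TM7SF2, each of the 4 groups holds genes on both sides of 0, and the diamond of IDI1 lies to the right of its point.

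Some falls stood among falls of adjacent genes. Within 100000 bp of TM7SF2, 8 of 12 tested protein-coding genes were lower and 1 was higher, beside 37.7% lower and 39.4% higher over all genes tested. None of them fell as strongly as TM7SF2. SYVN1, 5396 bp away, had a log2 fold change of -1.61 (adjusted p = 2.03e-20), and VPS51, which shares 16 bases of exon with TM7SF2 on the same strand, had -0.57 (adjusted p = 1.44e-12). STARD3 lies on chromosome 17, where 7 of 9 tested genes within 100000 bp were lower and 1 was higher. ERBB2, 24430 bp from STARD3, went from 7308 ± 365 to 1340 ± 53.0 CPM (log2 fold change -2.45, adjusted p = 8.34e-26), a larger fall than that of STARD3. Near the other genes that fell, lower neighbours were 0 of 4 for SREBF2, 0 of 3 for GGPS1, 2 of 4 for NPC1 and 1 of 2 for SCARB1. They were 3 of 4 for SCAP, 3 of 3 for MVK, 2 of 3 for SQLE, 2 of 2 for MSMO1, and 1 of 1 for INSIG2 and DHCR7. FDPS rose where 8 of 9 tested genes within 100000 bp fell and none rose. CAMK4, 1147 bp from STARD4, went from 0.0901 to 5.93 CPM.

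The rest of the pathway was described with 57 further genes, of which 56 had a row and 50 were tested. Of these 50, 21 rose, 21 fell and 8 were not called (84.0% called, beside 77.1% of all genes tested and 82.6% of those averaging 50 counts or more), with a median log2 fold change of 0.05. In SREBP processing and turnover 5 of 13 rose (38.5%) and 8 fell (61.5%), beside 39.4% and 37.7% of all genes tested. SREBF1, which encodes the SREBP more tied to fatty acid synthesis, went from 405.8 ± 27.2 to 172.9 ± 8.26 CPM, a log2 fold change of -1.23 (adjusted p = 2.57e-15). That is a larger change than the -0.30 of SREBF2. SYVN1, an endoplasmic reticulum ubiquitin ligase, and PGRMC1, a haem-binding membrane protein, fell by 1.61 and 1.24 on the log2 scale. ERLIN1, which helps degrade membrane proteins of the endoplasmic reticulum, rose by 0.62, and PAQR3, a Golgi membrane protein, rose by 0.31.

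Efflux and oxysterol sensing had 5 tested genes of 10. Of these, 3 rose, 1 fell and 1 was not called, beside 39.4% higher and 37.7% lower over all genes tested. ABCA1, which exports cholesterol to apolipoprotein acceptors, went from 1.61 ± 0.330 to 4.86 ± 0.279 CPM (log2 fold change 1.58, adjusted p = 2.93e-10). ABCG1 rose by 0.58 on the log2 scale. Of the liver X receptors, which sense oxysterols, NR1H2 rose by 0.38 and NR1H3 fell by 0.81.

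Among 19 tested genes of 21 in storage, hydrolysis and transfer, 7 rose (36.8%) and 9 fell (47.4%), beside 39.4% and 37.7% of all genes tested. The largest rises and the largest fall were in lipoprotein receptor relatives. LRP1 had between 30 and 40 counts in control and between 602 and 942 in knockdown (log2 fold change 4.45, adjusted p = 2.85e-22). VLDLR had between 11 and 15 counts in control and between 216 and 250 in knockdown (log2 fold change 4.17, adjusted p = 1.61e-19). LRP10, a further member of the family, went the other way, from 231.9 ± 8.02 to 53.5 ± 2.48 CPM (log2 fold change -2.12, adjusted p = 2.93e-24). GRAMD1A, which carries cholesterol from the plasma membrane to the endoplasmic reticulum, rose by 2.18. NCEH1, a cholesteryl ester hydrolase, fell by 1.74, and OSBPL2, an oxysterol-binding protein relative, fell by 1.19.

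Of 13 genes that use isoprenoids, 6 were higher, 3 lower and 4 not called, which is 69.2% called beside 77.1% of all genes tested. None was called at 2-fold or more, beside 28.3% of all genes tested. TRIT1, which adds an isopentenyl group to transfer RNA, rose by 0.90, PDSS1, a subunit of the enzyme that builds the ubiquinone tail, by 0.83 and RABGGTA, a subunit of the RAB prenyltransferase, by 0.62. ICMT, which methylates prenylated proteins, fell by 0.78, PDSS2, the other ubiquinone tail subunit, by 0.47 and DHDDS, a dolichol synthesis subunit, by 0.34. The pair PDSS1 and PDSS2 therefore moved in opposite directions, as did the INSIG and NPC pairs.

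**Figure D5:**
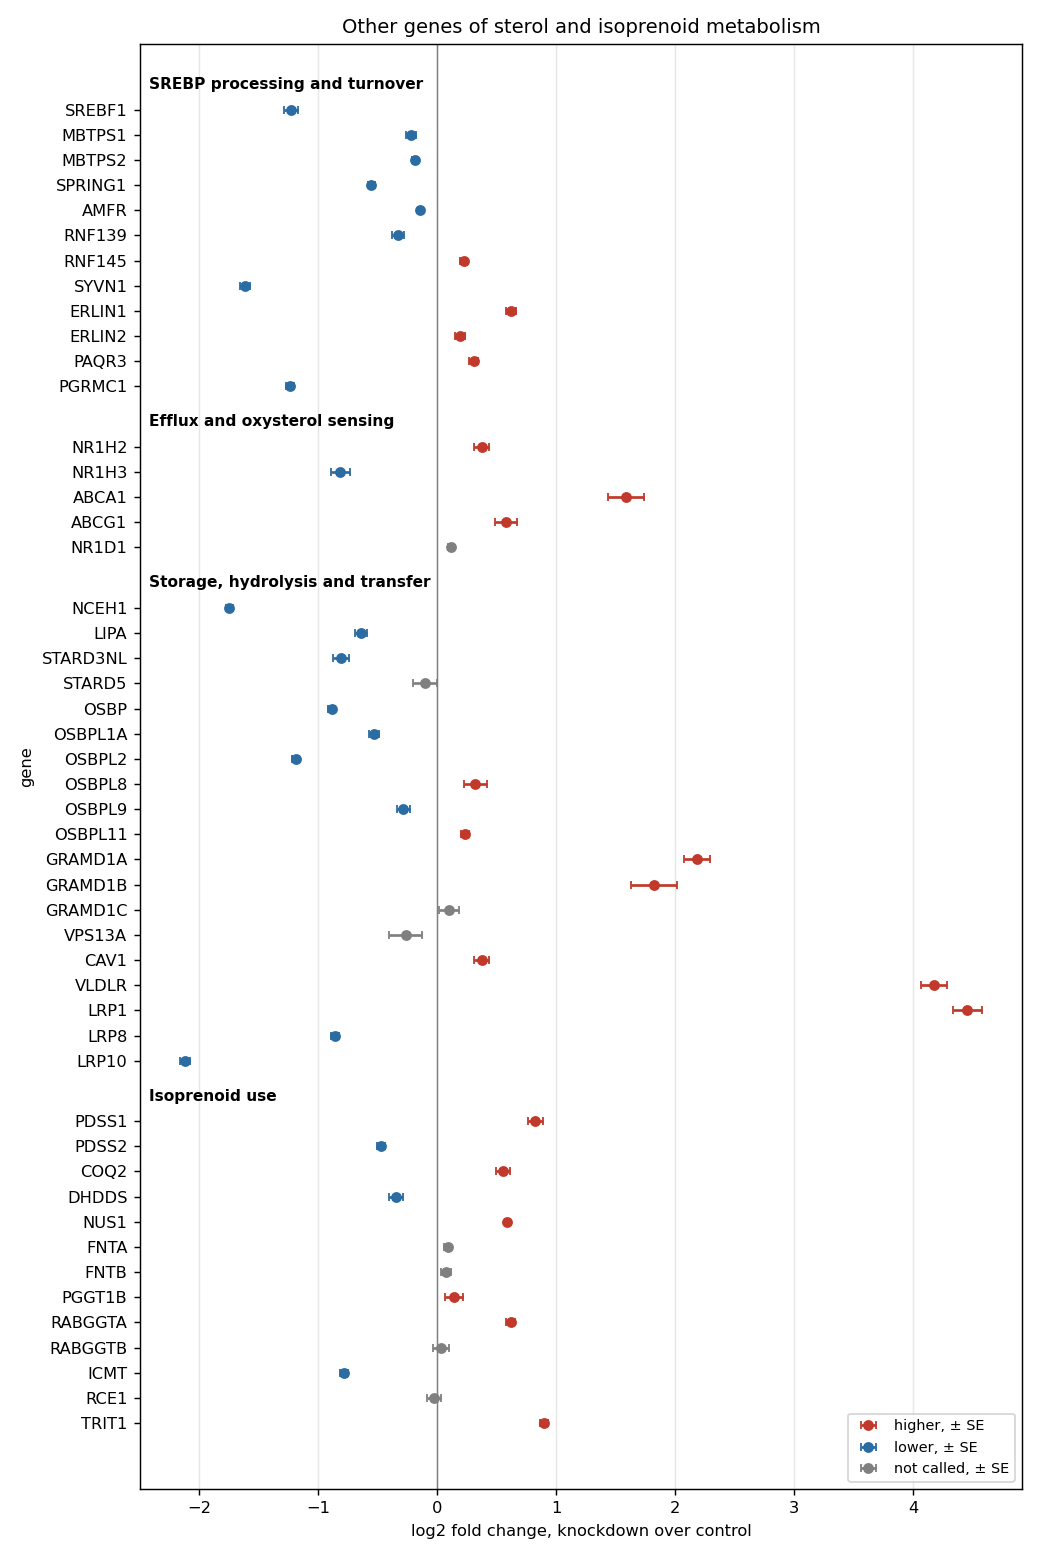
Log2 fold change (knockdown over control) of the tested further genes of the pathway, all but 1, by group, with bars of ± 1 SE (n = 4 per group), red for called higher, blue for called lower and grey for not called. LRP1 and VLDLR stand furthest to the right at 4.45 and 4.17, and LRP10 stands furthest to the left at -2.12.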

How the data were processed

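The authors deposited whole read counts per gene for 8 libraries of mRNA sequenced as paired reads of 101 bp, per the labels' protocols. The submitters' processing notes name hg38, FastQC, Salmon 1.9 and DESeq2 (3.16), without saying what each was used for. The annotation, rounding and use of strand are not given in the sources used here, and without strand, reads of overlapping genes mix.

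Counts were analysed in R 4.3.3 with edgeR 4.0.16: filterByExpr (minimum 10 counts) left 16430 of 30434 genes, TMM factors were between 0.965 and 1.04, and glmQLFit (robust) with glmQLFTest compared 4 knockdown with 4 control libraries, Benjamini-Hochberg adjusted over all genes tested at 0.05. The biological coefficient of variation was 4.56%. SEs come from log2 CPM per library with 0.5 added to each count. Exon lengths and neighbours come from GENCODE 29 on GRCh38. The test was checked on simulated counts.

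The members and gene lists were chosen with earlier results of these data known. Values in every library are given for the 4 regulators and for genes called at 2-fold or more. Of the further genes, up to 3 rises and 3 falls per list are named, among called genes that average 50 counts or more and whose groups do not overlap; 1 of them is counted but not reported here by name. Alternatives were other scalings and filters, DESeq2 1.42.0, limma 3.58.1 (voom), a replicate block, removal of the local chromosome shift, a threshold of 0.01, and leaving out each library. Same-numbered libraries did not deviate together (correlations between -0.031 and 0.056), so the numbers were not taken as pairs.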

Additional observations from a re-analysis of the deposited data

Results flagged for a closer look

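Within groups of 4 libraries, 60 groups of values were checked for a library far from the others, and 3 were found, beside 3.0 that chance gives at 1 in 20. MYLIP was high in control replicate 2, at 39.95 CPM against 37.28 to 37.49 in the other controls. STARD4 was low in control replicate 3, at 16.34 CPM against 18.53 to 18.87, in the library whose counts stood apart from the other controls. SCARB1 was low in knockdown replicate 3, at 129.4 CPM against 140.5 to 142.2. Each of these 3 genes kept its direction and its call when any library was left out.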

How the results depend on the processing

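Over 18 alternatives, 24 of the 29 genes kept their direction and their side of the threshold in each, as did 515 of 522 values. Scaling by library size alone, which moved the median of all genes tested to 0.103, gave a median of 0.233 for the 29 genes and 0.023 for FDFT1. With the local chromosome shift removed, 13 genes were higher and 14 lower, the median was -0.065, and values were -0.489 for IDI1, -0.182 for EBP (adjusted p = 0.00741), -0.139 for FDFT1 (adjusted p = 0.00117), 0.125 for MVD and -0.065 for SQLE; since the offset is built from neighbours, it takes off what they share. EBP was -0.021 without knockdown replicate 3 and ran up to 0.087 without knockdown replicate 2. Upper-quartile and library-size scaling each put 7 genes at 2-fold or more. Leaving out each library gave 15 higher and 12 lower each time, a median between 0.125 and 0.165, and 4 to 5 genes at 2-fold, since HSD17B7 ran from 0.98 to 1.04. A replicate block, for numbers that were not taken as pairs, kept 15 higher and 12 lower and called 12453 of all genes in place of 12675. Genes with few counts limit precision: INSIG2 and HSD17B7 had group means between 169 and 437 counts. TM7SF2 averaged 241.5 counts in knockdown, and STARD4 and MVD averaged 399.0 and 435.25 counts in control.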
